A study of Saccharomyces cerevisiae with 48 samples.

Results

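The comparison described here sets the second cycle of a phenelzine-treated yeast culture against its first. Its members are 24 of the 48 arrays of the study: phenelzine replicates 1 to 12 form the first cycle, replicates 13 to 24 the second, and each replicate of the second cycle is paired with the one 12 numbers and 48 min before it, which gives 12 pairs. All 48 samples came from 1 continuous culture of Saccharomyces cerevisiae IFO0233, a budding yeast strain grown in a fermenter, sampled every 4 min and hybridised to Affymetrix Yeast 2.0 arrays. The other arrays are 11 controls, taken before the drug from 13.8 to 14.5 h after inoculation, and 13 late phenelzine arrays. Phenelzine, an inhibitor of monoamine oxidase used in people as an antidepressant, was added to change the period of the culture's cycle, and the dose was not given in the labels used here. The first cycle spans 14.6 to 15.3 h and the second 15.4 to 16.1 h, so every array of both cycles carries the drug and no untreated culture of those hours was part of the comparison. Drug, time in the fermenter and order of processing therefore run together and cannot be told apart, and the p-values reflect how much the 12 pairs vary within 1 culture.

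In continuous culture this strain alternates between high and low oxygen consumption, and most of its transcripts rise and fall with that respiratory cycle. Genes for making ribosomes and amino acids, for respiration, and for reserve carbohydrate and stress protection are known to peak at different places in it. Setting an array against the one at the same place a cycle earlier removes much of this swing from the comparison. Values below are log2 intensities after quantile normalization over all 48 arrays, differences are second minus first cycle in those units, and amplitude is the height of a fitted 48-min cosine above its mean. Each standard error (SE) of a difference is over the 12 pairs.

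The lag was chosen by the cycle length seen on the same arrays, so the likeness of paired arrays is a description and supports nothing. Across the 12 time points the median correlation of a gene's profile in the 2 cycles was 0.77 at 48 min, against 0.60 at 44 min and 0.57 at 52 min, lags that lie just outside the rule. The median absolute difference of a pair was 0.119 at 48 min, 0.150 at 44 min and 0.165 at 52 min. Pair by pair the median absolute difference ran from 0.141 to 0.169 over pairs 1 to 5 and from 0.089 to 0.114 over pairs 6 to 12. By this measure the cycles were least alike in their opening 20 min. Another measure was the correlation of paired arrays after each gene's mean in its cycle was taken off. It was lowest at pair 6, 0.58, whose second-cycle array had unusual quality values given below, and pair 1, 0.59. In pairs 2 to 4 it ran from 0.73 to 0.74, above the 0.67 to 0.70 of pairs 10 to 12.

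The median level of the tested probe sets as deposited was 10.10 ± 0.28 (SD, n = 12) in the first cycle and 10.10 ± 0.23 (SD, n = 12) in the second. Fission yeast probe sets, which this culture cannot fill, had a median of 1.81 ± 0.31 and 1.85 ± 0.28. Replicates 22 to 24 follow a skipped array number, 91. For dap, a spiked control RNA, the log2 ratio of 3′ to 5′ signal was 1.58 ± 0.11 (SD, n = 12) in the first cycle, 1.66 ± 0.13 (SD, n = 9) in the second-cycle arrays before the skip and 2.23 ± 0.25 (SD, n = 3) in those after it. For the yeast's own ACT1 the ratio was 0.35 ± 0.13 in the first cycle and 0.34 ± 0.19 in the second. Replicate 18, the second-cycle array of pair 6, had the highest ACT1 ratio, 0.88, and the lowest tested median as deposited, 9.50. For WBP1 the ratio was 1.27 ± 0.17 in the first cycle, 1.18 ± 0.13 in the second before the skip and 1.46 ± 0.25 after it. The part of this shift in the results was not tested, and the 3 late pairs are left out below for several of the lists. ACT1, actin, had a level of 13.83 in the first cycle and 13.85 in the second, a difference of 0.01 ± 0.02 (SE, adjusted p = 0.68).

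Of 5372 tested probe sets, 1189 (22.1%) passed the threshold, an adjusted p under 0.05 in a paired limma fit. Of these 585 (10.9% of those tested) were higher and 604 (11.2%) lower in the second cycle. Counts of called genes in each list below are to be read against these shares. Differences were small, with a median size of 0.17 among the called probe sets, 32 of which differed by at least 0.5 and none by 1. All 12 pairs lay on the higher side for 115 probe sets (2.14%) and on the lower side for 107 (1.99%). With the 9 pairs before the skipped number, 483 were called higher (8.99%) and 483 lower (8.99%), and 841 of the 1189 were called again in the same direction.

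These counts rest on the pairing and on the lag. Without pairs limma called 0 probe sets, with 351 at an unadjusted p under 0.05, against 1962 in the paired fit. At 44 min 15 were called and at 52 min 49, all of them also called in the same direction at 48 min. Neighbouring pairs are 4 min apart and not independent, with a median correlation of 0.18 between the differences of successive pairs, and averaging them into 4 runs of 3 left 17 calls, all shared. On the values as deposited 86 were called, 54 higher and 32 lower, of which 84 were shared. Fewer cells of a kind and less RNA per cell cannot be told apart in such bulk samples.

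GCV1, a subunit of the glycine cleavage complex that feeds glycine carbon into the folate pool, had the smallest adjusted p among the named genes. Its lowest, median and highest arrays were 11.39, 11.64 and 12.29 in the first cycle. In the second they were 11.91, 12.28 and 12.71. The 2 ranges overlapped, yet every pair was higher in the second cycle, by 0.27 to 0.85. The mean difference was 0.58 ± 0.05 (SE, adjusted p = 2.6e-06), or 1.49-fold, and its call also passed at 44 min and at 52 min (adjusted p = 0.0002 at both). Mean GCV1 levels were 11.62 in the control, 11.79 in the first cycle, 12.36 in the second and 12.89 in the last arrays. These windows hold different parts of the cycle, the last arrays all follow a skipped array number, and no test was made between windows.

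Other genes of one-carbon metabolism rose with it, and 5 of the 15 listed genes were called higher (33.3%, against 10.9% of all probe sets). MTD1, a cytosolic methylenetetrahydrofolate dehydrogenase, rose by 0.43 ± 0.05 (SE, adjusted p = 3.6e-05). GCV2, the glycine decarboxylase subunit, rose by 0.31 ± 0.04 (SE, adjusted p = 9.2e-05). SHM2, the cytosolic serine hydroxymethyltransferase, rose by 0.25 ± 0.03 (SE, adjusted p = 1.8e-05), and all 12 pairs were higher for these 3 genes. GCV3, the lipoyl carrier subunit, rose by 0.18 ± 0.03 (SE, adjusted p = 0.00071) with 11 of 12 pairs higher. In the whole list 7 genes had a lower mean, and the median of all 15 was 0.01, close to the median of 0.00 over all tested genes. Among purine and pyrimidine genes 9 of 29 rose and 8 fell, while on the deposited values 1 was called higher and 0 lower. URA10, the minor orotate phosphoribosyltransferase, rose by 0.39 ± 0.04 (SE, adjusted p = 1.3e-05), while IMD4, an IMP dehydrogenase, fell by 0.28 in log2 units (adjusted p = 0.0023).

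**Figure D1:**
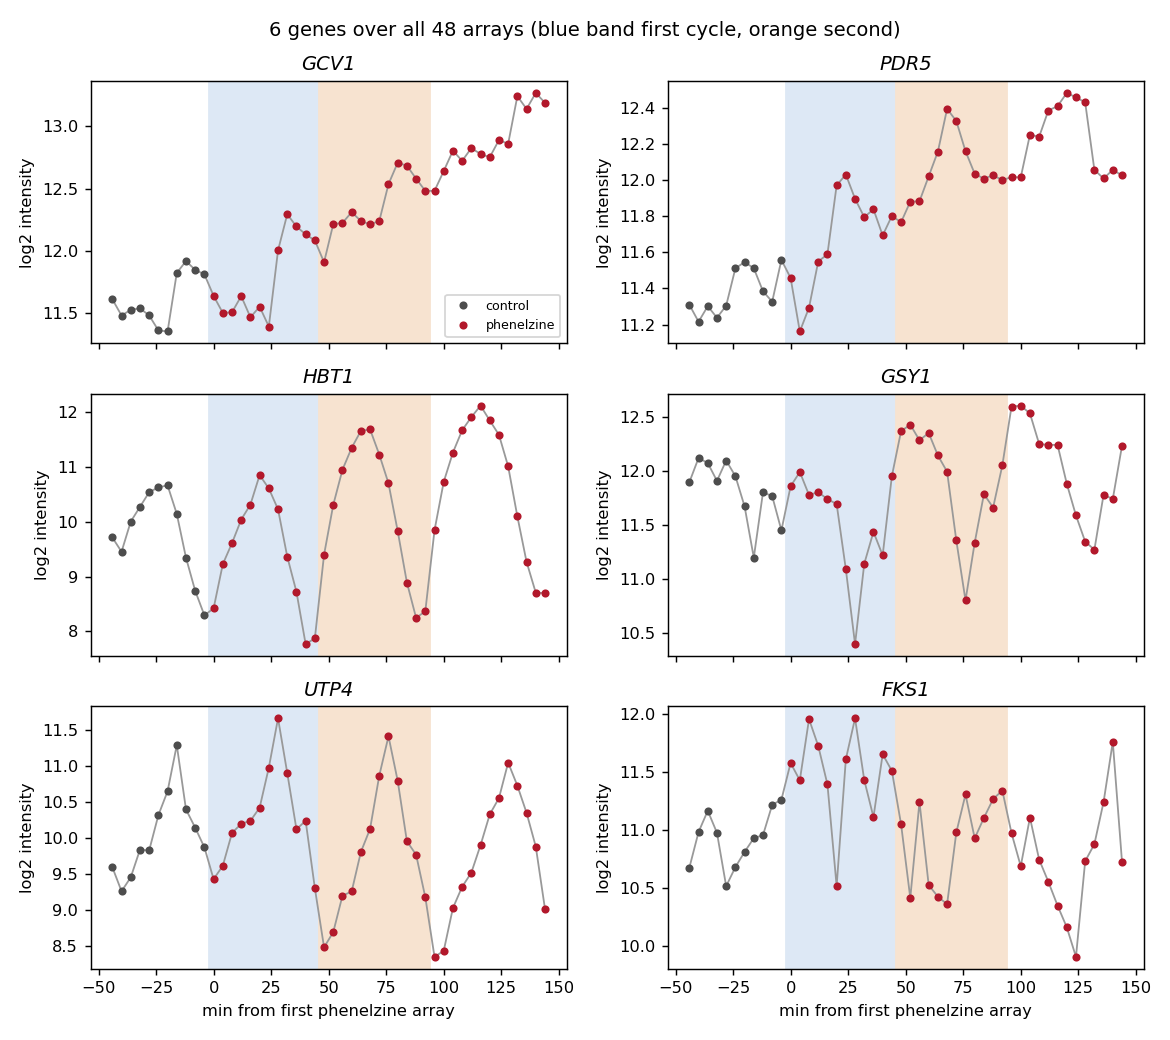
Log2 intensity (vertical axis) of 6 genes on all 48 arrays, by minutes from the first phenelzine array. Control arrays are grey and phenelzine arrays red, with the first cycle on a blue band and the second on an orange one. GCV1 and PDR5 lie higher through the second cycle, HBT1 and GSY1 reach higher maxima in it (11.68 against 10.85 for HBT1), and UTP4 reaches a lower minimum (8.49 against 9.31).

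Of the 26 multidrug resistance genes tested 9 were called higher (34.6%) and 2 lower (7.69%), with a median of 0.09, and without the late pairs 6 and 1. Over all probe sets the shares were 10.9% and 11.2%. RSB1, an exporter of sphingoid long-chain bases, had a lowest, median and highest level of 8.52, 9.53 and 10.18 in the first cycle. In the second its values were 9.09, 10.15 and 10.89. Ranges overlapped while all 12 pairs were higher, and the difference was 0.60 ± 0.06 (SE, adjusted p = 1.3e-05). PDR5, the main multidrug ABC transporter of the plasma membrane, ran from 11.16 through a median of 11.74 to 12.03 in the first cycle and from 11.77 through 12.02 to 12.39 in the second. It rose by 0.38 ± 0.04 (SE, adjusted p = 7.7e-05) and was also called at 44 min (adjusted p = 0.00043) and 52 min (adjusted p = 0.014). PDR15, its close homolog, rose by 0.39 ± 0.06 and YOR1, the oligomycin ABC transporter, by 0.33 ± 0.04 (SE, adjusted p = 0.0007 and 3.6e-05). Near-identical stretches of PDR5 and PDR15 can share signal on an array, so their values may not be independent.

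Genes of reserve carbohydrate moved together. All 18 glycogen and trehalose genes had a higher mean in the second cycle, 13 of them past the threshold (72.2%, against 10.9% of all probe sets called higher), with a median of 0.21. Without the 3 late pairs 12 were called, and on the deposited values 7, with medians of 0.24 and 0.26. GSY1, a glycogen synthase, ran from 10.40 through a median of 11.72 to 11.99 in the first cycle. It ran from 10.80 through 12.03 to 12.43 in the second. All 12 pairs were higher although the ranges overlapped, and the rise was 0.37 ± 0.04 (SE, adjusted p = 1.8e-05). GSY2, the major glycogen synthase, rose by 0.30 ± 0.04, and TPS1, trehalose-6-phosphate synthase, by 0.34 ± 0.05 (SE, adjusted p = 0.00032 and 0.0008). GDB1, the glycogen debranching enzyme, rose by 0.27 ± 0.04, and TSL1, a regulatory subunit of the trehalose synthase complex, by 0.25 ± 0.04 (SE, adjusted p = 0.0011 and 0.00032). IGD1, an inhibitor of Gdb1, rose by 0.56 ± 0.07 (SE, adjusted p = 8.7e-05).

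The control gives a further reference for these genes. The median mean level of the glycogen and trehalose list was 11.7 in the control, 11.5 in the first cycle, 11.8 in the second and 11.9 in the last arrays. GSY1 had means of 11.81, 11.51, 11.88 and 12.03 in those windows, so its first-cycle mean was the lowest of the 4. The windows hold 11, 12, 12 and 13 arrays and different parts of the cycle, and no test was made between them.

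HBT1 and FMP45 had the largest rises named by rule. HBT1, a substrate of the ubiquitin-like modifier Hub1, had a lowest, median and highest level of 7.77, 9.49 and 10.85 in the first cycle. Its values in the second were 8.25, 10.50 and 11.68. Every pair was higher, by 0.17 to 1.34, with overlapping ranges, and the mean difference was 0.80 ± 0.10 (SE, adjusted p = 0.00011), 1.74-fold. FMP45, a membrane protein of the SUR7 family, rose by 0.81 ± 0.14 (SE, adjusted p = 0.0011), its pairs ranging from -0.02 to 1.73. TKL2, the minor transketolase, rose by 0.74 ± 0.11 and GND2, the minor 6-phosphogluconate dehydrogenase, by 0.65 ± 0.10 (SE, adjusted p = 0.0004 and 0.00052). These last 2 enzymes belong to the pentose phosphate pathway, and each has a major isoenzyme that carries most of its activity in growing cells. FMP16 rose by 0.63 ± 0.12 (SE, adjusted p = 0.0028).

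HSP12, a small membrane-protecting heat shock protein, ran from 9.01 through a median of 10.16 to 11.01 in the first cycle. It ran from 9.28 through 10.89 to 11.91 in the second. Its ranges overlapped, 11 of 12 pairs were higher, and the rise was 0.55 ± 0.08 (SE, adjusted p = 0.00033). CTT1, the cytosolic catalase, rose by 0.54 ± 0.09 (SE, adjusted p = 0.00079). SSA3, an HSP70 of stationary phase, rose by 0.48 ± 0.08 and TSA2, a peroxiredoxin, by 0.48 ± 0.10 (SE, adjusted p = 0.0015 and 0.0043). The lists that hold these genes were mixed. Over all probe sets 10.9% were called higher and 11.2% lower. Of 26 heat shock and chaperone genes 5 rose (19.2%) and 3 fell (11.5%), and 6 and 5 were called without the late pairs. Among those that fell was SSE1, an HSP110 that serves cytosolic folding, by 0.26 in log2 units (adjusted p = 0.031). Of 37 redox defence genes 12 rose (32.4%) and 2 fell (5.41%), with a median of 0.05, while on the deposited values 1 was called higher and 0 lower. Of the autophagy genes 8 of 26 rose (30.8%) and 22 of 26 had a higher mean, with a median of 0.11. On the deposited values limma called 0 of them, with 1 at an unadjusted p under 0.05. ATG33, a mitophagy protein, rose by 0.33 ± 0.05, and ATG7, the E1-like enzyme of autophagy, by 0.28 ± 0.05 (SE, adjusted p = 0.0007 and 0.0012).

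**Figure D2:**
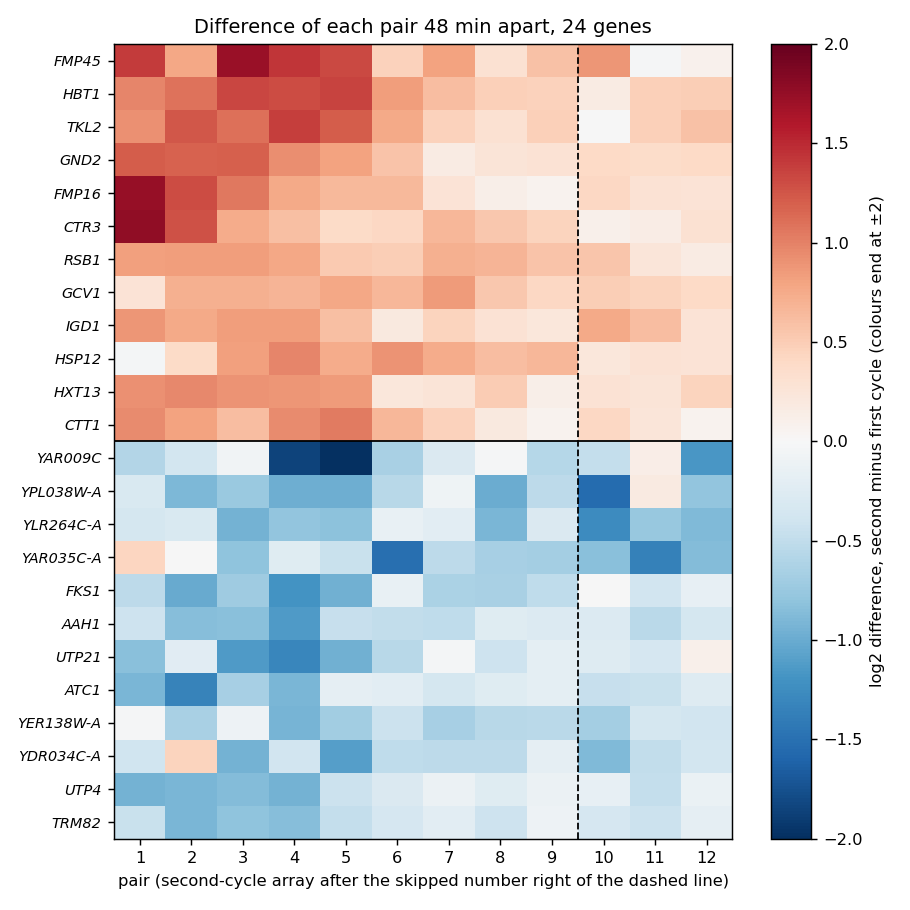
Log2 difference of each of the 12 pairs (columns, in order of sampling) for the 12 largest rises and 12 largest falls named by rule (rows), red where the second cycle is higher. Colours are deepest in pairs 1 to 5 for most rows, while RSB1 and GCV1 stay between 0.17 and 0.85 throughout. The dashed line marks pairs whose second-cycle array follows the skipped number.

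Of 25 copper, zinc and phosphate genes 2 rose (8%) and of 19 hexose transport genes 3 (15.8%), shares near the 10.9% of all probe sets called higher. CTR3, a high-affinity copper transporter, rose by 0.61 ± 0.11 (SE, adjusted p = 0.0022), with its widest pair at 1.78 and its narrowest at 0.11. HXT13 rose by 0.55 ± 0.08 and HXT17 by 0.51 ± 0.09 (SE, adjusted p = 0.00045 and 0.0017). These 2 transporters of the hexose family are close in sequence, so probe sets for them may share signal. HXT5, a hexose carrier of slow-growing cells, rose by 0.36 ± 0.06 (SE, adjusted p = 0.0008). Of 27 iron regulon genes 6 rose (22.2%) and 1 fell. Limma called 0 of these 27 on the deposited values, with 3 higher at an unadjusted p under 0.05. FIT1, a cell wall mannoprotein that retains siderophore iron, rose by 0.27 ± 0.04 (SE, adjusted p = 0.00039), while AFT2, an iron-responsive transcription factor, fell by 0.17 in log2 units (adjusted p = 0.023).

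Ribosome biogenesis genes moved the opposite way. Of 114 tested, 112 had a lower mean in the second cycle and 70 passed the threshold (61.4%, against 11.2% of all probe sets called lower), with a median of -0.24. Without the late pairs 69 were called and the median was -0.29, and on the deposited values 11 were called with a median of -0.26. UTP4, a protein of the small-subunit processome that cuts and folds pre-rRNA, ran from 9.31 through a median of 10.22 to 11.66 in the first cycle. It ran from 8.49 through 9.79 to 11.42 in the second. Ranges overlapped while all 12 pairs were lower, and UTP4 fell by 0.47 in log2 units (SE 0.09, adjusted p = 0.0021). UTP21 of the same complex had values of 7.26, 8.62 and 10.61 in the first cycle and 6.66, 8.07 and 10.19 in the second (lowest, median, highest), and fell by 0.51 (SE 0.11, adjusted p = 0.005). NOP14, also needed for 18S rRNA, fell by 0.44 and NOP13, a nucleolar RNA-binding protein, fell by 0.43 (adjusted p = 0.0082 and 0.022).

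Within the cycle the difference of this list lay mainly in the opening 20 min. The lowest array of the second cycle was below that of the first in 112 of 114 genes, with a median change of -0.52, whereas the highest array was higher in 34 of 114, with a median change of -0.05. Over all tested genes those median changes were -0.01 and 0.02. Pair by pair the list's median difference was -0.56, -0.49, -0.59 and -0.45 in pairs 1 to 4 and -0.25 in pair 5. From pair 6 to pair 12 it lay between -0.10 and 0.00, also at pair 12, where levels were again low (9.44 and 9.33). In pair 3 only 2 of the 114 members were higher in the second cycle, and in pair 9, next to the peak, 58 were. Glycogen and trehalose genes differed most in the same opening pairs with the opposite sign, with a median difference of 0.48 in pair 1 and 0.24 in pair 5. It was lowest in pair 7, at 0.05, and lay between 0.10 and 0.19 in pairs 8 to 12. In pairs 11 and 12 it was 0.19 and 0.11, against -0.10 and -0.09 for ribosome biogenesis, so both lists kept a small difference there. The highest array of the glycogen and trehalose genes was higher in the second cycle for all 18, by a median of 0.26.

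**Figure D3:**
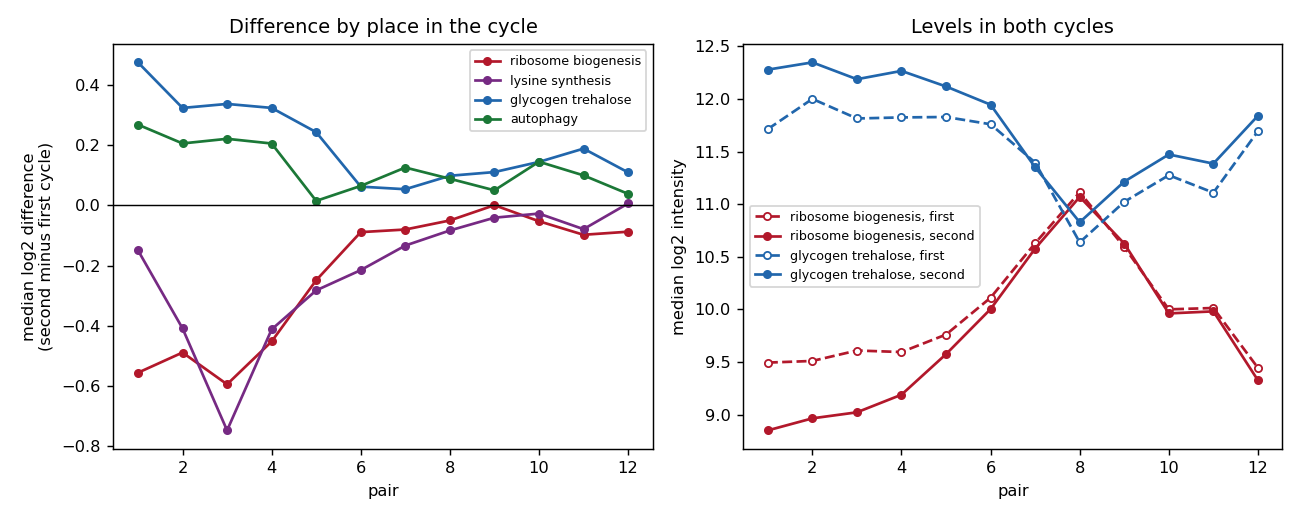
Left, the median log2 difference of 4 gene lists at each of the 12 pairs, second minus first cycle. Right, the median log2 intensity of 2 lists at the same 12 places in the first (open symbols) and second (filled) cycle. Ribosome biogenesis genes part at pair 1, 9.50 and 8.85, and lie close at their peak, 11.11 and 11.07 at pair 8, and at the low levels of pair 12, 9.44 and 9.33.

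Other parts of the translation apparatus were lower too, by less. Of 26 genes of RNA polymerase I and III, which transcribe rRNA and tRNA, 8 fell and 1 rose, with a median of -0.13. Limma called 1 of them lower and 0 higher on the deposited values. RPA190, the largest subunit of polymerase I, fell by 0.31 in log2 units (adjusted p = 0.0061), and RRN5, of its upstream activation factor, rose by 0.28 ± 0.06 (SE, adjusted p = 0.0071). Of 33 translation factor genes 16 fell, with a median of -0.10, among them TIF4631, the scaffold eIF4G1, by 0.25 (adjusted p = 0.0029), and SUI2, eIF2 alpha, by 0.20 (adjusted p = 0.0021). On the deposited values limma called 0 of the translation factors, with 3 lower at an unadjusted p under 0.05. Of 18 tRNA synthetase genes 9 fell, with a median of -0.09, and 5 without the late pairs and 1 on the deposited values. KRS1, lysyl-tRNA synthetase, had the largest difference of that list at -0.71 ± 0.19 (SE, adjusted p = 0.015), but its pairs were uneven, from -1.91 to -0.24 in pairs 1 to 8 and from -0.08 to 0.41 in pairs 9 to 12.

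Cytosolic ribosomal protein genes fell by small amounts. Of 129 tested 48 were called lower (37.2%), 36 without the late pairs, with a median of -0.05. On the deposited values limma called 0 of them, with 12 lower at an unadjusted p under 0.05 and a median of -0.03. Many are near-identical pairs of genes that arrays cannot fully separate. RPS19A fell by 0.27 in log2 units (SE 0.04, adjusted p = 0.00036), with all 12 pairs lower. Its 12 arrays ran from 11.90 through a median of 12.15 to 12.65 in the first cycle and from 11.56 through 11.84 to 12.50 in the second. Mitochondrial ribosomal protein genes did not follow: 9 of 71 were called higher and 1 lower, with a median of 0.04. The share called higher, 12.7%, is near the 10.9% of all probe sets. On the deposited values limma called 0 of these 71, with a median of 0.09. The gene called lower, RSM22, fell by 0.42 (adjusted p = 0.0044) in all 12 pairs. TRM82, a subunit of the enzyme that makes 7-methylguanine in tRNA, fell by 0.46 (adjusted p = 0.00044), also in all 12 pairs.

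Lysine synthesis genes fell as a group, 8 of 9 past the threshold (88.9%) with a median of -0.21, and 8 were also called without the late pairs. On the deposited values 2 were called, with a median of -0.15. LYS20, homocitrate synthase and the entry step of the pathway, ran from 11.57 through a median of 13.03 to 13.34 in the first cycle and from 11.07 through 12.68 to 13.34 in the second. The ranges shared their upper end, and LYS20 fell by 0.29 in log2 units (SE 0.08, adjusted p = 0.019). LYS9, saccharopine dehydrogenase, fell by 0.34 (SE 0.09, adjusted p = 0.014). The list's median difference was widest at pair 3, -0.75, and 0.01 at pair 12. In the 6 genes with an amplitude of at least 0.5 in both cycles, the fitted peak shifted by a median of -1.95 min (-2.60 to -1.73), negative being earlier. Over all 9 genes the median shift was -2.05 min, but 1.40 min with each array centred on its median. The part of timing in the level differences was not tested. Of 10 arginine synthesis genes 3 fell, of 13 branched-chain genes 2, and of 22 aromatic and histidine genes 4, each list with a median below 0. The last 2 shares, 15.4% and 18.2%, are near the 11.2% of all probe sets called lower, and without the late pairs 4 branched-chain genes were called. Wide-swinging arginine, branched-chain, and aromatic and histidine genes had median peak shifts of -1.78, -2.13 and -1.71 min. With each array centred on its median, the shifts over all members were -0.02, 1.75 and -0.05 min.

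Sulfate assimilation genes, whose swing is the widest of the lists, were lower on average in all 10 cases, with a median of -0.14. The sign changed within the cycle. The list's median difference was -0.89, -0.42 and -0.39 in pairs 1 to 3 and between 0.05 and 0.13 in pairs 9 to 12. Past the threshold were MET3, ATP sulfurylase, and SUL1, a sulfate permease. MET3 ran from 8.19 through a median of 11.34 to 13.29 in the first cycle and from 7.58 through 10.78 to 13.36 in the second. Its maxima were close and its minimum lower, and it fell by 0.32 in log2 units (SE 0.09, adjusted p = 0.023) with 9 of 12 pairs lower. SUL1 fell by 0.23 (adjusted p = 0.031). MET16, PAPS reductase, differed by -0.15 ± 0.09 (SE, adjusted p = 0.26) and SUL2, the other sulfate permease, by -0.07 ± 0.12 (SE, adjusted p = 0.72). Among genes of methionine and cysteine metabolism 2 rose and 1 fell of 20, the risers being the methionine permeases MUP3 (0.25 ± 0.07) and MUP1 (0.25 ± 0.08). Without the late pairs 1 rose and 2 fell.

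Nitrogen catabolism genes divided, 4 higher (14.3%) and 9 lower (32.1%) of 28, against 10.9% and 11.2% of all probe sets. Limma called 0 of them on the deposited values, with 3 higher and 6 lower at an unadjusted p under 0.05. DAL7, malate synthase 2 of allantoin use, fell by 0.33 in log2 units in all 12 pairs (SE 0.04, adjusted p = 6.2e-05). DAL80, a GATA repressor of this pathway, fell by 0.40 (adjusted p = 0.0068). BAP3, a permease of branched-chain amino acids, rose by 0.34 ± 0.08 (SE, adjusted p = 0.0072), while GNP1, a glutamine permease, differed by 0.29 ± 0.11 (SE, adjusted p = 0.061).

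Among the largest single falls was FKS1, a catalytic subunit of beta-1,3-glucan synthase in the cell wall. Its lowest, median and highest arrays were 10.52, 11.54 and 11.96 in the first cycle. In the second they were 10.36, 11.01 and 11.34. All 12 pairs were lower with overlapping ranges, and FKS1 fell by 0.58 in log2 units (SE 0.09, adjusted p = 0.00059). Its mean was 10.93 in the control, 11.49 in the first cycle, 10.91 in the second and 10.76 in the last arrays, so that the first cycle held the highest mean. The windows hold different parts of the cycle and no test was made between them. The cell wall list as a whole was mixed, 6 rising (17.1%) and 4 falling (11.4%) of 35, near the 10.9% and 11.2% of all probe sets. SPI1, a cell wall protein of weak acid stress, was up by 0.38 ± 0.05 (SE, adjusted p = 0.00028). AAH1, adenine deaminase, fell by 0.53 (SE 0.07, adjusted p = 0.00018) and HXK2, the main hexokinase on glucose, by 0.24 (SE 0.03, adjusted p = 2.3e-05), each in all 12 pairs. ATC1 fell by 0.51 (adjusted p = 0.0022).

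Several of the largest falls were of short or repeated reading frames. YAR009C, a fragment of the retrotransposon Ty1, fell by 0.70 (SE 0.19, adjusted p = 0.015). Ty1 copies are near-identical, so the value cannot be assigned to 1 locus. YPL038W-A fell by 0.68 (SE 0.12, adjusted p = 0.0019), YLR264C-A by 0.64 (SE 0.09, adjusted p = 0.00032), YER138W-A by 0.50 (SE 0.07, adjusted p = 0.00042) and YDR034C-A by 0.49 (SE 0.10, adjusted p = 0.0045). YAR035C-A fell by 0.63 (SE 0.14, adjusted p = 0.007) and was past the threshold no longer without the late pairs (adjusted p = 0.056). AQY1, a spore aquaporin near the array's background with a median of 4.05 in the first cycle, differed by -0.68 ± 0.38 (SE, adjusted p = 0.21), and its 3 late pairs, -3.85, -3.11 and -1.14, were its lowest.

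**Figure D4:**
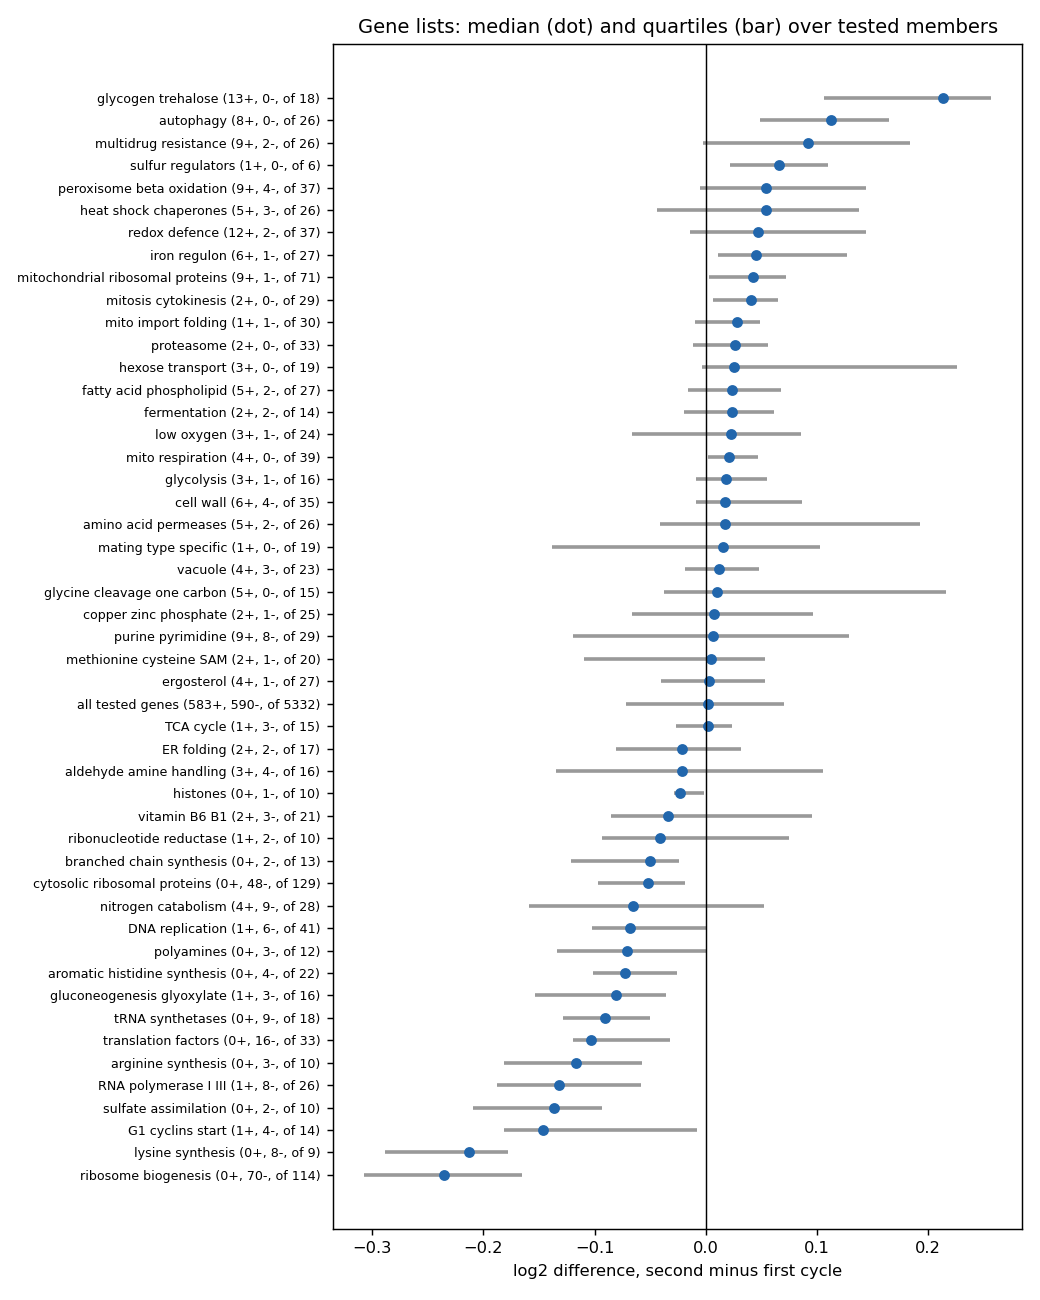
Median (dot) and quartiles (bar) of the log2 difference, second minus first cycle, over the tested members of each gene list and of all tested genes. Labels give the number called higher (+) and lower (-) and the number tested. Glycogen and trehalose genes lie highest at 0.21 and ribosome biogenesis genes lowest at -0.24, with all tested genes at 0.00.

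Whether the shape of the swing differed between cycles was tested with the interaction of cycle and 48-min cosine and sine terms. It passed for 42 of 5372 probe sets (0.782%), with 789 at an unadjusted p under 0.05, and 34 of the 42 had the larger amplitude in the second cycle. With the pair as a block, so that only differences within pairs enter, 694 passed, including all 42. With 9 pairs 100 passed. The period, like the lag, came from the same arrays, and 24 passed at 44 min. The test takes height and timing together, so amplitudes and peak times are given apart as descriptions.

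Ribosome biogenesis genes swung more widely in the second cycle. Their median amplitude was 0.72 in the first cycle and 0.96 in the second, and it was larger in the second for 111 of 114. The same held for 110 on the deposited values and for all but 9 with each array centred on its median. Over all tested genes the medians were 0.23 and 0.25, with 3309 of 5332 larger. Past the threshold were 2 members, and 70 with the pair as a block. The peak came at a median of 32.2 min in the first cycle and 32.8 min in the second, in the 91 genes with an amplitude of at least 0.5 in both. Peak times are on a clock that reads 4 min, not 0, at the first array of each cycle. TRM11, a catalytic subunit of a tRNA guanine methyltransferase, went from an amplitude of 0.61 to 1.39 (adjusted p = 0.032 in the joint test). That was the largest gain among genes past the threshold.

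Sulfate assimilation genes had median amplitudes of 2.04 and 2.24, larger in the second cycle for all 10, but for 7 with each array centred on its median. For lysine synthesis the medians were 0.79 and 1.04, larger in 8 of 9, and in 7 on the deposited values. Proteasome genes had the smaller amplitude in the second cycle in 31 of 33, at medians of 0.28 and 0.21, but this direction turned with each array centred on its median, where 27 were larger. Glycogen and trehalose genes, larger in 17 of 18, likewise turned on the deposited values, where 7 were larger. On those values the median amplitude change of all genes was -0.14, against 0.03 in the main setting.

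**Figure D5:**
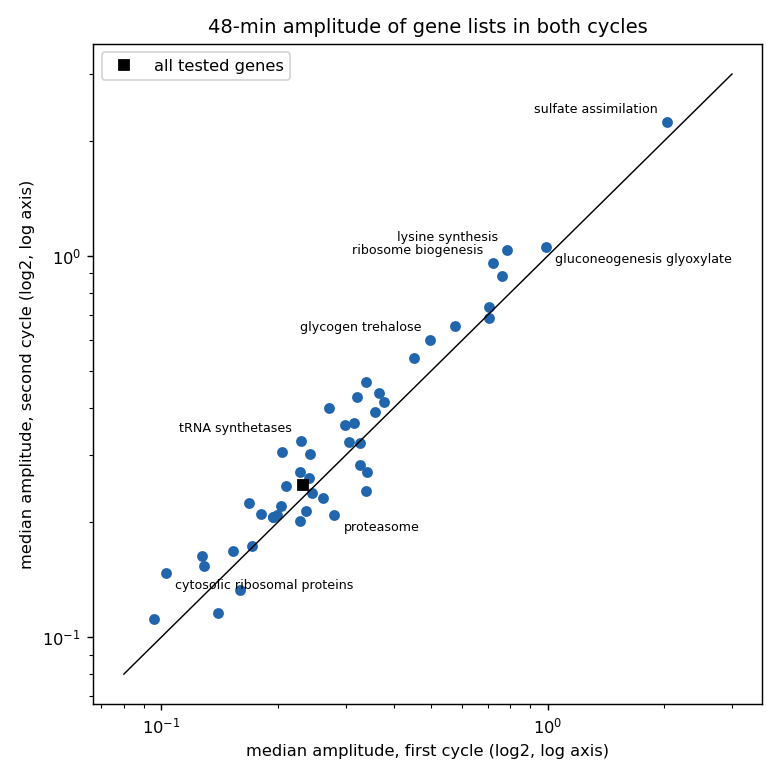
Median 48-min amplitude of each gene list in the first (horizontal) and second (vertical) cycle, both on log axes in log2 units, with the line of equality and all tested genes as a black square. Ribosome biogenesis (0.72 and 0.96) and lysine synthesis (0.79 and 1.04) lie above the line and the proteasome (0.28 and 0.21) below it.

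Single genes changed their place in the cycle, with peak times again on the clock that reads 4 min at the first array. EDC1, an enhancer of mRNA decapping, had an amplitude of 0.39 with a peak at 32.1 min in the first cycle, and of 0.90 with a peak at 9.83 min in the second (adjusted p = 0.0018). Its pairs changed sign accordingly, from 1.35 at pair 2 to -1.62 at pair 8, and its mean level differed by -0.06 ± 0.25 (SE, adjusted p = 0.89). HEM3, porphobilinogen deaminase of heme synthesis, had amplitudes of 1.01 and 0.85 with peaks at 33.8 and 15.0 min (adjusted p = 0.01), and the sign of its amplitude change turned with the 9 pairs before the skipped number. Other genes past the threshold of the joint test had a larger amplitude in the second cycle. These were GNP1 (0.95 to 1.49), GAD1, glutamate decarboxylase (0.97 to 1.47), ETP1 (0.18 to 0.74) and CPD1, a cyclic phosphodiesterase (0.04 to 0.69). A smaller amplitude was seen in IMH1, a Golgi transport protein (0.39 to 0.11), PRY3, a sterol-binding protein (0.34 to 0.07), and PRE10, a proteasome core subunit (0.32 to 0.09). It was also seen in DCP1, of the decapping enzyme (0.23 to 0.10), and BNS1 (0.26 to 0.18). BNS1 had a change of 0.011 in the other direction with 9 pairs. PRE10 arrays ran from 11.74 to 12.51 in the first cycle and from 11.94 to 12.24 in the second, a narrower range inside the wider one.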

How the data were processed

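RNA of 48 time points was labelled and hybridised by the authors. The deposited values are linear intensities, for which the submitters' processing notes name GCOS. No source used here gives its version, algorithm or scaling, and the scale and centring of the columns remain unknown. Values under 1 were set to 1, log2 transformed and quantile normalized over 48 arrays. Of 10928 probe sets 5498 had a budding yeast gene, and 5372 (5332 genes) had a mean above the level that 90 percent of the fission yeast ones stay under and were tested; 126 were left out. Genes were named through GEO's platform annotation and the RefSeq R64 gene table.

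Levels were compared with limma 3.58.1 in R 4.3.3 (paired differences, eBayes with trend) and rhythms with an F test of the interaction of cycle with cosine and sine terms, both with Benjamini-Hochberg adjustment over all tested probe sets and a threshold of 0.05. Pairing rests on the lag: the correlation of paired arrays' deviations ran from 0.58 to 0.84. The members and lists were chosen with earlier results of these data known. Named were the 12 largest called differences each way with at least 11 of 12 pairs on 1 side, the 6 largest amplitude gains and losses, up to 4 called members a list, and 20 genes by name; the text gives a selection of these. A gene with several probe sets was read from the one of highest mean. Fits were run on simulated data with independent noise on each array and an exact lag. Dependence between neighbouring pairs and a wrong lag were therefore not covered. Alternatives tried were other scalings and filters, a pseudocount of 50, no variance trend, other lags, periods, blocks, name suffix and pairs left out. Python 3.11.15 with matplotlib 3.10.9 drew the figures. The number of arrays limits the precision.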

Additional observations from a re-analysis of the deposited data

Results flagged for a closer look

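Outside the gene measurements, the spiked dap control had a mean log2 ratio of 3′ to 5′ signal of 2.23 on the 3 second-cycle arrays after the skipped array number, above the highest control array at 1.78. The median log2 of fission yeast probe sets reached 2.43 on 1 second-cycle array, above the highest control array at 2.32. Replicate 18, the second-cycle array of pair 6, had an ACT1 log2 ratio of 3′ to 5′ signal of 0.88, above the highest control array at 0.54. Its median over the tested probe sets as deposited, 9.50, was the lowest of the 48 arrays. No test of single far-off samples was run.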

How the results depend on the processing

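The 1189 level calls became 86 on the deposited values (54 higher, 32 lower), 15 at a lag of 44 min (11 and 4), 49 at 52 min (33 and 16), 17 over 4 runs of 3 consecutive pairs (13 and 4) and 0 with no replicate block. They stayed within 1.5 times under the other settings tried, with 803 to 1173 when 1 pair was left out. The 42 rhythm calls became 79 on the deposited values, 16 with each array centred on its median, 100 with the 9 pairs before the skipped number, 24 at a period of 44 min, 322 with a second harmonic added and 694 with the replicate block. Leaving out 1 pair gave 17 to 59 rhythm calls, 17 without pair 2, 3 or 9 and 18 without pair 7. The causes were not tested, beyond that a lag moves arrays to another place in the cycle and runs leave 4 values.

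Among the 180 called genes named by rule, 42 were still called on the deposited values, 116 with median centring, 148 with 9 pairs and 10 at 44 min. At 52 min 17 of them were still called, over 4 runs of 3 consecutive pairs 13, and with no replicate block 0. HTB1, called lower, turned to 0.026 on the deposited values and 0.025 with median centring, and CUP1-1 to 0.031 under both. The amplitude change of HEM3 turned to 0.23 on the deposited values, 0.25 with 9 pairs and 0.069 without pair 10 (lowest -0.35, without pair 2), and that of BNS1 to 0.011 with 9 pairs. Dim probe sets have only their distance from the fission yeast background as a limit of precision.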

Other observations

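In central carbon metabolism single enzymes moved both ways. Beside the fall of HXK2, the other hexokinase HXK1 rose by 0.11 ± 0.02 (SE, adjusted p = 0.0012) in all 12 pairs, and PYK2, the minor pyruvate kinase, rose by 0.17 ± 0.04 (SE, adjusted p = 0.0073). ALD5, a mitochondrial aldehyde dehydrogenase, fell by 0.27 on the log2 scale (adjusted p = 0.0083), while ALD4, the major mitochondrial form, rose by 0.10 ± 0.02 (SE, adjusted p = 0.0042). CIT3, a minor citrate synthase, fell by 0.23 in all 12 pairs (adjusted p = 0.0027). The list median was 0.02 for glycolysis, 0.02 for respiration and 0.00 for the TCA cycle. Of 16 gluconeogenesis and glyoxylate genes 13 had a lower mean, with a median of -0.08. Of these 16 genes 3 were called lower (18.8%, against 11.2% of all probe sets) and 1 higher. Without the late pairs 9 were called lower and 1 higher, with a median of -0.17. On the deposited values limma called 0 of them, with a median of -0.03. CYC7, the low-oxygen form of cytochrome c, rose by 0.33 ± 0.06 and its repressor ROX1 fell by 0.26 (adjusted p = 0.0022 and 0.0029). The list of low-oxygen genes had 3 of 24 higher (12.5%, near the 10.9% of all probe sets) and 1 lower.

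Of 14 genes of Start 4 fell (28.6%, against the 11.2% of all probe sets called lower) and 1 rose. Limma called 0 of them on the deposited values, with 1 lower at an unadjusted p under 0.05. The G1 cyclin CLN1 fell by 0.29 on the log2 scale (adjusted p = 0.00061) and CLN2 by 0.22 (adjusted p = 0.007). WHI5, the repressor of Start, rose by 0.24 ± 0.06 (SE, adjusted p = 0.0082). Of 41 replication genes 6 fell (14.6%, near the 11.2% of all probe sets called lower) and 1 rose. Among them fell POL30, the sliding clamp, by 0.21 in all 12 pairs (adjusted p = 0.00012). Of 29 genes of mitosis and cytokinesis 2 rose, and 4 without the late pairs, DBF2, a mitotic exit kinase, by 0.31 ± 0.06 (SE, adjusted p = 0.0041). In peroxisomal beta-oxidation 9 of 37 genes rose (24.3%) and 4 fell (10.8%), against 10.9% and 11.2% of all probe sets, and 5 and 4 without the late pairs. Limma called 0 of them on the deposited values, with 0 higher and 1 lower at an unadjusted p under 0.05. POT1, the thiolase, was up by 0.38 ± 0.06 (SE, adjusted p = 0.0012). Polyamine genes, whose enzymes handle amines, had 3 of 12 lower, 1 without the late pairs, and FMS1, polyamine oxidase, differed by -0.01 ± 0.04 (SE, adjusted p = 0.94).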
